A study of Mus musculus with 12 samples.

Results

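Rhes (Rasd2), its relative Dexras1 (Rasd1) and 8 further genes that load, unload or form the Ras and Rap switches were followed through the striatum of Huntington's disease knock-in mice with and without cGAS. The genes were taken by symbol from all 12 count files and number 10 of the 55487 genes listed: Rasd2, Rasd1, Rasgrp1, Rasgrp2, Rasgrf1, Rasgrf2, Rasal1, Rap1gap, Rap1a and Rap1b. All 10 were measured in every library and passed the filter on low counts. Bulk poly(A)+ RNA was sequenced from the striatal tissue of 12 mice, with 3 mice per group. The double mutants (cGAS-KO;HD) carried 1 zQ175 neo-deleted knock-in allele and lacked cGAS, and the HD mice carried the same heterozygous knock-in with cGAS intact. The cGAS-KO mice lacked cGAS and had no knock-in allele, and the WT mice were C57BL/6J controls. The zQ175 allele puts an expanded CAG repeat into the mouse huntingtin gene, so that the mutant protein is made wherever huntingtin is, and cGAS is the cytosolic DNA sensor that acts through STING. The sources used here do not give age or sex. The comparisons address whether loss of cGAS changes what the knock-in allele does to these genes.

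Ras and Rap proteins are small GTPases that are active when bound to GTP. Exchange factors (GEFs) load them with GTP, and activating proteins (GAPs) speed up its hydrolysis and so turn the switch off. In the GABAergic medium spiny neurons of the striatum, calcium- and diacylglycerol-regulated GEFs couple glutamate and dopamine input to Ras-ERK and Rap signalling. Rhes is a Ras-like GTPase concentrated in the striatum that binds mutant huntingtin and promotes its SUMO modification, and Dexras1 was found as a dexamethasone-induced transcript.

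Levels are CPM, read counts scaled to library size and composition by the TMM method, and changes are log2 ratios with their standard errors from edgeR's quasi-likelihood fit over all 12 libraries. A gene was called where the Benjamini-Hochberg adjusted p over the 21309 genes tested was under 0.05. Total counts ran between 59195327 and 72765623 per library. The 16 listed genes of medium spiny neurons, among them Ppp1r1b, Drd1 and Drd2, were all detected, and their summed level was 2448 to 2517 CPM in the double mutants, 1500.3 to 2807 CPM in HD, 5084 to 6184 CPM in cGAS-KO and 4059.6 to 5670.0 CPM in WT. WT library 1 and cGAS-KO library 3 stood apart from their groups. In cGAS-KO library 3 mitochondrial transcripts took 11.5% of counts, against 5.30% to 9.03% in the other libraries. The 11 cortical projection neuron genes summed to 1206 CPM there, against 393 and 263 CPM in the other 2 cGAS-KO libraries, and to 208 CPM in WT library 1, against 711 and 829.5 CPM in the other 2 WT libraries. Htt averaged 135 ± 8.19 CPM in the double mutants and 139 ± 7.48 CPM in HD, against 170.4 ± 13.2 CPM in cGAS-KO and 173 ± 5.27 CPM in WT (SD, n = 3 each). Cgas averaged 1.03 ± 0.203 CPM in the double mutants and 1.15 ± 0.0963 CPM in HD, a change of -0.16 ± 0.23, and 0.777 ± 0.177 CPM in cGAS-KO and 1.41 ± 0.129 CPM in WT, a change of -0.86 ± 0.24 (edgeR adjusted p = 0.856 and 0.919). The sources used here do not say which stretch of Cgas is deleted, and a count over the whole gene is a weak check of the cGAS labels.

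Rasd2, Rasgrp2 and Rap1gap fell in knock-in striatum both without and with cGAS, and Rap1a rose in HD against WT. In the double mutants against cGAS-KO, 3 of the 10 genes fell and none rose, where 3.96% of all genes tested were called, 2.52% lower and 1.44% higher. In HD against WT, 3 fell and 1 rose, where 4.1% of all genes were called, 2.67% lower and 1.43% higher. The median log2 change of the 10 genes was -0.37 in the double mutants against cGAS-KO and -0.34 in HD against WT, beside 0.00 and 0.01 over all genes tested. Without WT library 1 and cGAS-KO library 3 the counts were 4 lower in the double mutants, where 8.31% of all genes were then called, and 5 lower and 1 higher in HD, where 16.5% were.

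**Figure D1:**
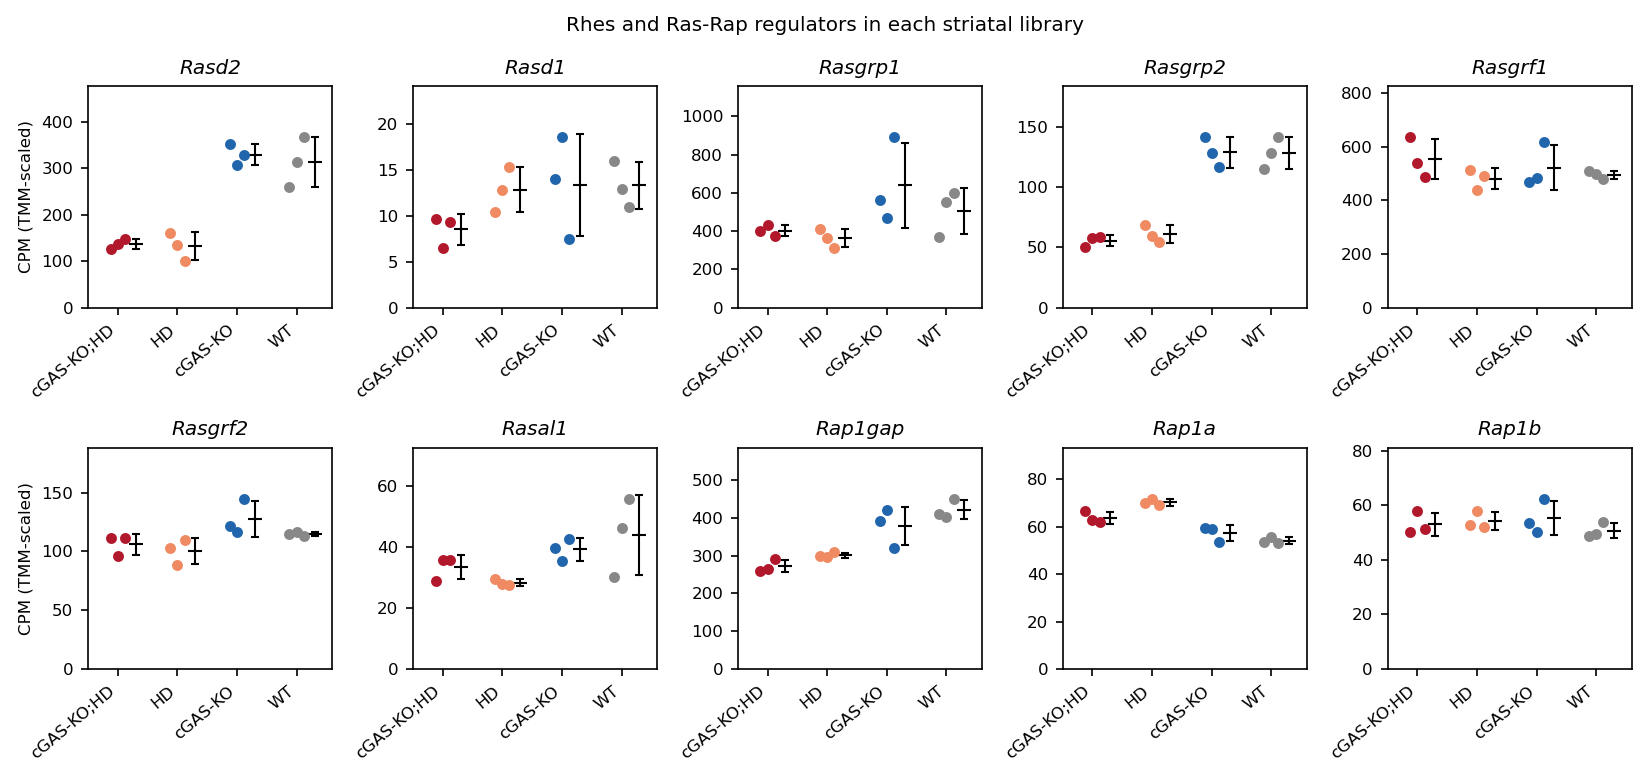
Each panel plots 1 gene in TMM-scaled CPM on an axis that starts at 0, with 1 point per library in the double mutants (cGAS-KO;HD), HD, cGAS-KO and WT, and the mean and SD of 3 libraries beside the points. Rasd2, Rasgrp2, Rap1gap, Rasgrf2 and Rap1a separate the 6 knock-in libraries from the 6 others, with Rap1a higher and the rest lower. Rasd1, Rasgrp1, Rasgrf1, Rasal1 and Rap1b do not.

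Rasd2 encodes Rhes and lies at chr8:75213944-75224113 on the plus strand (GENCODE M21, GRCm38, as are the gene positions that follow). It was at 125, 137 and 149 CPM in the double mutants, against 352, 307 and 327 CPM in cGAS-KO. It was at 161, 135 and 100.4 CPM in HD, against 260.3, 314 and 367 CPM in WT. Each of the 6 knock-in libraries was below each of the 6 libraries without the allele. The share of all genes that separate in this way was not counted. In the single pairs, 21.5% of all genes tested did not overlap in the double mutants against cGAS-KO and 27.7% in HD against WT. The lowest Rasd2 value of all was in HD library 3. The change was -1.26 ± 0.16 in the double mutants against cGAS-KO (adjusted p = 0.00101) and -1.25 ± 0.16 in HD against WT (adjusted p = 0.00127), which is 0.422 times the WT level. The 2 changes differed by -0.02 ± 0.22, with a 95% interval of -0.50 to 0.46, so a sizeable difference in either direction lies inside the interval. Loss of cGAS itself gave 0.05 ± 0.16 in the double mutants against HD and 0.07 ± 0.16 in cGAS-KO against WT, neither of them called.

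Rasd2 moved beside the medium spiny neuron genes, of which 11 of 16 fell in the double mutants against cGAS-KO and 12 of 16 in HD against WT. In bulk tissue, fewer cells of a type and less RNA per cell cannot be told apart. Rasd2 was 5.12% to 6.04% of the summed CPM of that list in the double mutants, against 5.70% to 6.04% in cGAS-KO. It was 5.75% to 6.69% in HD, against 6.35% to 6.47% in WT, so that its share of the list overlapped between knock-in and other libraries in both pairs. The part of these neurons in the result was not tested. The 5 genes whose centred log2 CPM profile lay closest to that of Rasd2 over 12 libraries, among 15256 genes with a mean of at least 1 CPM, were Kcnip2 (root-mean-square distance 0.0630), Tesc (0.0696), Slc24a4 (0.0846), Hpca (0.0921) and Syndig1l (0.0922). Kcnip2 encodes a potassium channel-interacting protein and Hpca the neuronal calcium sensor hippocalcin. Kcnip2 averaged 73.3 CPM in the double mutants and 67.6 CPM in HD, against 171 CPM in cGAS-KO and 161 CPM in WT. Rasgrp2 ranked 13 in the same list with a distance of 0.143, while Rasgrp1, Rap1gap and Rasal1 ranked 580, 709 and 761. The median gene was at 0.685, and a gene with a flat profile would be at 0.658.

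Rasd1, at chr11:59963181-59964944 on the minus strand, was the least abundant of the 10 genes per length of transcript. It was at 9.68, 6.53 and 9.32 CPM in the double mutants, against 14.0, 18.6 and 7.51 CPM in cGAS-KO. It was at 10.4, 12.8 and 15.3 CPM in HD, against 16.01, 12.9 and 11.0 CPM in WT. The groups overlapped in both knock-in pairs, and the changes were -0.65 ± 0.28 (adjusted p = 0.261) and -0.05 ± 0.28 (adjusted p = 0.949). The wide spread in cGAS-KO came with library 3, and without that library the change in the double mutants was -0.95 ± 0.22 (adjusted p = 0.0306). All 3 double-mutant values lay below all 3 HD values, a pattern that 8.33% of all genes tested showed in that direction, with a change of -0.60 ± 0.28 (adjusted p = 0.757). The summed level of 4 thalamic neuron genes followed the order of Rasd1 within each of the 4 groups. It was 299, 187 and 261 CPM in the double mutants, 307, 483 and 686 CPM in HD, 165, 440.4 and 73.3 CPM in cGAS-KO and 428, 201 and 120.03 CPM in WT. This was the only one of 110 pairs of a gene and a context list with the same order in all 4 groups, it was noticed after the values were seen, and the part of thalamic tissue in the Rasd1 level was not tested. Glucocorticoid-induced genes, a list of 8 without Rasd1, summed to 166 to 179 CPM in the double mutants, 167 to 188 CPM in HD, 190.0 to 205 CPM in cGAS-KO and 227 to 257 CPM in WT.

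Among the 4 exchange factors, Rasgrp2 had the largest changes and the others were not called in either pair. It encodes CalDAG-GEFI, which loads Rap in response to calcium, and lies at chr19:6399340-6415216 on the plus strand. Rasgrp2 was at 49.96, 57.3 and 58.8 CPM in the double mutants, against 141, 128 and 116 CPM in cGAS-KO. It was at 68.8, 59.4 and 54.7 CPM in HD, against 115, 128 and 141 CPM in WT. Again every knock-in library was below every other library, as was also the case for Rap1gap and for Rasgrf2, which was not called in either pair. Rasgrp2 fell in both pairs, with log2 changes of -1.22 ± 0.11 in the double mutants (adjusted p = 8.26e-05) and -1.07 ± 0.11 in HD (adjusted p = 0.000240). The 2 changes differed by -0.15 ± 0.15, with a 95% interval of -0.48 to 0.18. Rasgrp2 was 2.04% to 2.39% of the summed medium spiny neuron genes in the double mutants, against 2.04% to 2.52% in cGAS-KO, and 2.45% to 3.65% in HD, against 2.49% to 2.82% in WT. An antisense gene, Gm14965, overlaps it and held 4 to 30 counts per library.

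Rasgrp1, which encodes a diacylglycerol-responsive GEF for Ras, lies at chr2:117279993-117343001 on the minus strand. It was at 402, 432 and 376 CPM in the double mutants, against 562, 469 and 892 CPM in cGAS-KO, with no overlap. It was at 409, 365 and 314 CPM in HD, against 369.7, 552 and 598 CPM in WT, where WT library 1 fell inside the HD range. The changes of -0.67 ± 0.22 (adjusted p = 0.133) and -0.48 ± 0.22 (adjusted p = 0.275) were not called by edgeR, while DESeq2 called the change in the double mutants at -0.68 ± 0.22 (adjusted p = 0.0311). The highest and the lowest of the 6 libraries without the knock-in allele were cGAS-KO library 3 and WT library 1, which were also the highest and the lowest of those 6 in summed cortical projection neuron genes. Without these 2 libraries the change was -0.36 ± 0.10 in the double mutants against cGAS-KO (adjusted p = 0.0516) and -0.68 ± 0.10 in HD against WT (adjusted p = 0.000831). The cortical sum was 191 to 241 CPM in HD and 242 to 374 CPM in the double mutants. The WT libraries kept in that fit were at 711 and 829.5 CPM, above every HD library. The cGAS-KO libraries kept were at 393 and 263 CPM, which overlapped the double mutants. Among the 6 libraries without the allele, WT library 1 was also the lowest in summed medium spiny neuron genes, while cGAS-KO library 3 was not the highest. The part of cortical tissue or of medium spiny neurons in the Rasgrp1 level was not tested.

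Rasgrf1 and Rasgrf2 encode calmodulin-dependent GEFs for Ras that act downstream of calcium entry. Rasgrf1, at chr9:89909908-90026977, was at 637, 540.4 and 489.6 CPM in the double mutants, against 468, 484 and 618 CPM in cGAS-KO. It was at 513, 440.5 and 493 CPM in HD, against 509, 498 and 480.0 CPM in WT. The groups overlapped in both pairs, with changes of 0.09 ± 0.12 (95% interval -0.17 to 0.35) and -0.04 ± 0.12 (95% interval -0.30 to 0.22). Rasgrf2, at chr13:91880400-92131656, was at 111, 95.8 and 111 CPM in the double mutants, against 122, 116 and 145 CPM in cGAS-KO. It was at 103, 88.1 and 109.5 CPM in HD, against 115, 116 and 113 CPM in WT. The knock-in libraries were the lower ones without overlap in both pairs, yet the changes of -0.27 ± 0.10 (adjusted p = 0.179) and -0.20 ± 0.10 (adjusted p = 0.320) were not called. Rasgrf2 was also the only one of the 10 genes whose groups did not overlap in cGAS-KO against WT, at 0.15 ± 0.10 higher (adjusted p = 0.919), where 8.79% of all genes did not overlap.

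Of the 2 GAPs, Rap1gap was called in both knock-in pairs and Rasal1 in neither. Rap1gap, which inactivates Rap1, lies at chr4:137664726-137729861 on the plus strand. It was at 261, 265 and 290.1 CPM in the double mutants, against 392, 419.6 and 321 CPM in cGAS-KO. It was at 298, 296 and 309 CPM in HD, against 411, 403 and 451 CPM in WT. The groups did not overlap in either pair, as was the case for 6 of the 10 genes in each. Over all genes tested, 21.5% did not overlap in the double mutants against cGAS-KO and 27.7% in HD against WT. Rap1gap fell in both, with log2 changes of -0.47 ± 0.10 in the double mutants (adjusted p = 0.0164) and -0.49 ± 0.10 in HD (adjusted p = 0.0140). The call in the double mutants was lost when either of double-mutant libraries 1 and 2 or cGAS-KO library 1 was left out and with those 2 groups alone. The call in HD was lost without WT library 3, HD library 2 or HD library 3, and the adjusted p-values of these fits lay between 0.0551 and 0.0926. The median log2 change of the medium spiny neuron genes was -1.19 in both pairs. Rap1gap made up 10.5% to 11.8% of their summed CPM in the double mutants, against 5.66% to 8.25% in cGAS-KO, and 10.6% to 20.6% in HD, against 7.95% to 10.1% in WT.

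Rasal1 encodes a calcium-regulated GAP for Ras and lies at chr5:120648812-120679597. It was at 28.9, 35.7 and 35.9 CPM in the double mutants, against 39.8, 35.3 and 42.6 CPM in cGAS-KO. It was at 29.6, 28.0 and 27.4 CPM in HD, against 30.0, 46.2 and 55.8 CPM in WT. The double-mutant and cGAS-KO libraries overlapped, and the 3 HD values lay just below the lowest WT value. Neither change was called, at -0.23 ± 0.18 (adjusted p = 0.567) and -0.64 ± 0.18 (adjusted p = 0.0677). The HD change was called by DESeq2 (adjusted p = 0.00978), and without WT library 1 it was -0.87 ± 0.12 (adjusted p = 0.00186). WT library 1 had the lowest summed cortical genes of its group, at 208 CPM, against 191 to 241 CPM in HD. WT libraries 2 and 3 were at 711 and 829.5 CPM, above every HD library. WT library 1 also had the lowest medium spiny neuron sum of its group, at 4060 CPM against 4942 and 5670 CPM, and the highest thalamic sum, at 428 CPM. Rasal1 kept the order of the medium spiny neuron sum in 2 groups and the opposite order in 0. With the cortical sum it kept the same order in 2 groups and the opposite order in 1. The part of cortical tissue or of medium spiny neurons in the Rasal1 level was not tested.

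**Figure D2:**
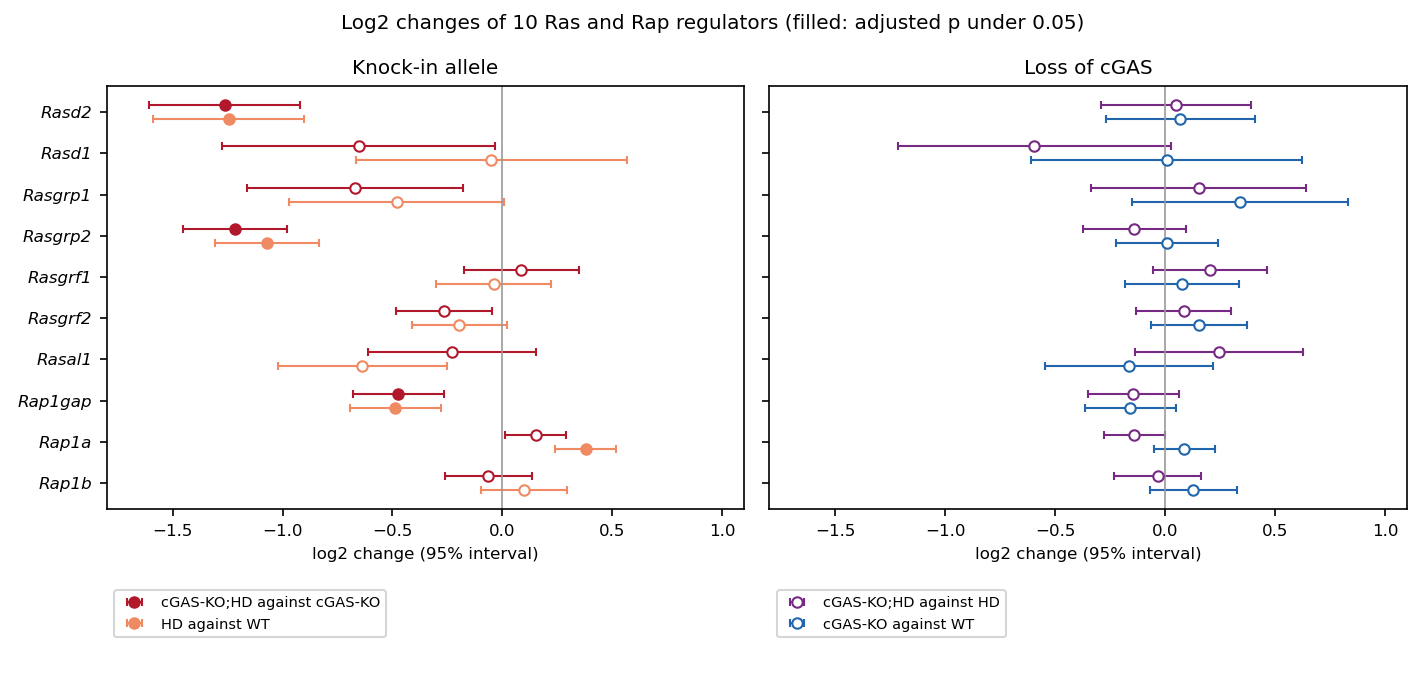
The log2 change of each gene is plotted with its 95% interval, at left for the knock-in allele without cGAS (cGAS-KO;HD against cGAS-KO) and with it (HD against WT), and at right for loss of cGAS in knock-in mice (cGAS-KO;HD against HD) and without the allele (cGAS-KO against WT). Filled points, which mark calls, appear for Rasd2, Rasgrp2 and Rap1gap in both knock-in comparisons and for Rap1a in HD against WT, and the cGAS panel holds none.

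Rap1a and Rap1b encode the closely related Rap1 GTPases on which CalDAG-GEFI and Rap1GAP act. Rap1a, at chr3:105727267-105801336 on the minus strand, was at 66.4, 62.9 and 61.8 CPM in the double mutants, against 59.5, 59.02 and 53.4 CPM in cGAS-KO. It was at 69.9, 71.8 and 69.0 CPM in HD, against 53.5, 55.6 and 52.9 CPM in WT. The knock-in libraries were higher without overlap in both pairs, and the double mutants lay between WT and HD without touching either. The share of all genes with that order was not counted, and 17.1% of all genes tested did not overlap between the double mutants and HD. The rise of 0.38 ± 0.06 in HD was called (adjusted p = 0.00652), and the change of 0.15 ± 0.06 in the double mutants was not (adjusted p = 0.237). The test of the difference between them gave -0.23 ± 0.09, which had an unadjusted p of 0.0268 and an edgeR adjusted p of 1.00. The double mutants were at -0.14 ± 0.06 against HD (unadjusted p = 0.0468, adjusted p = 0.757). Without HD library 2 the rise in HD was 0.35 ± 0.08 (adjusted p = 0.0532). A gene inside an intron of Rap1a on the same strand, Gm43328, held 136 to 265 counts per library, and the pseudogene Rap1a-ps2 held 0 to 7.

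Rap1b, at chr10:117813871-117846035, was at 50.1, 57.8 and 51.1 CPM in the double mutants, against 53.5, 50.4 and 62.4 CPM in cGAS-KO. It was at 52.9, 58.1 and 52.0 CPM in HD, against 48.7, 49.6 and 53.9 CPM in WT. The groups overlapped in both pairs, with changes of -0.06 ± 0.09 (95% interval -0.26 to 0.13) and 0.10 ± 0.09 (95% interval -0.10 to 0.30).

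Per kilobase of the principal transcript, Rap1gap had the highest mean level in WT at 130 ± 7.89 CPM per kb, followed by Rasgrf1 at 121 ± 3.54, Rasd2 at 112 ± 19.0 and Rasgrp1 at 96.8 ± 23.0 CPM per kb (SD, n = 3). Each of these 4 overlapped its neighbour in the order. Rasgrp2 followed at 55.7 ± 5.82, Rasgrf2 at 32.2 ± 0.420, Rap1a at 22.4 ± 0.577, Rap1b at 18.6 ± 1.01, Rasal1 at 13.5 ± 4.02 and Rasd1 at 8.26 ± 1.57 CPM per kb, where Rasal1 and Rasd1 alone overlapped as neighbours. In HD, Rasgrf1 led at 118 ± 9.18 CPM per kb and Rasd2 stood at 47.1 ± 10.9 CPM per kb, with Rap1a at 29.2 ± 0.590 and Rasgrp2 at 26.6 ± 3.12 CPM per kb. The order depends on the transcript taken, since the exons of all annotated transcripts together give Rasgrp2 12384 bases in place of 2296.

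**Figure D3:**
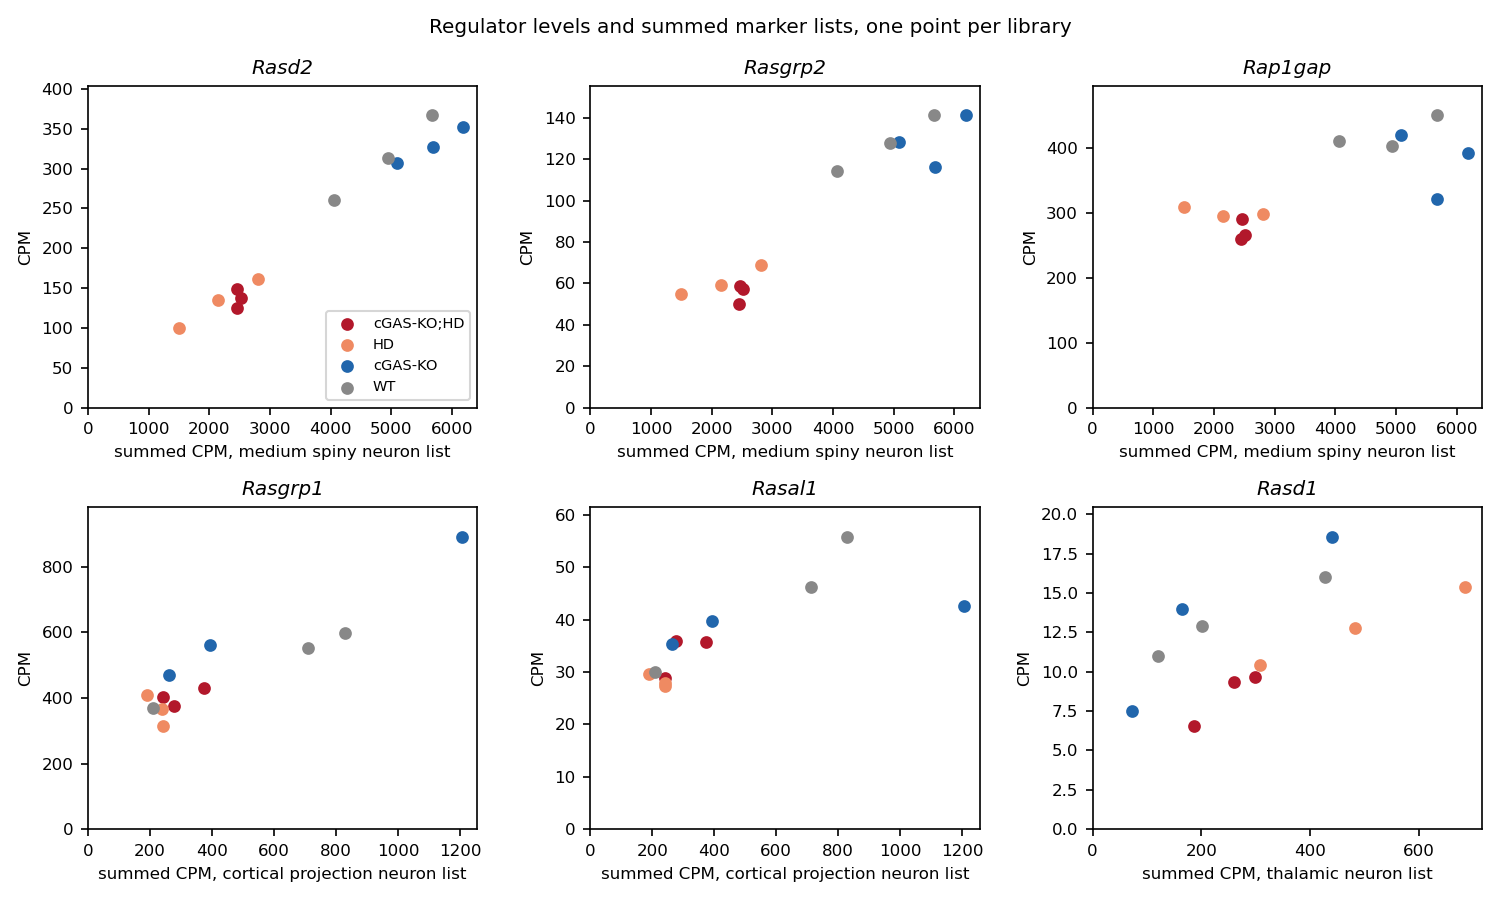
Each point is 1 library, with the CPM of a gene on the vertical axis and the summed CPM of a marker list on the horizontal axis, coloured by group. Rasd2 and Rasgrp2 form 2 clusters along the medium spiny neuron sum, with the 6 knock-in libraries at the low end, Rasgrp1 is highest in the cGAS-KO library with the most cortical signal, and Rasd1 keeps the order of the thalamic sum within each group.

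Averaging the knock-in effect over both cGAS genotypes brought in 3 more calls. In that comparison 6 of the 10 genes fell and 1 rose, where 13.2% of all genes tested were called, 7.63% lower and 5.59% higher. The log2 change was -1.25 ± 0.11 for Rasd2 (adjusted p = 2.77e-05), -1.14 ± 0.08 for Rasgrp2 (adjusted p = 2.44e-06) and -0.48 ± 0.07 for Rap1gap (adjusted p = 0.000614). Rap1a rose by 0.26 ± 0.05 (adjusted p = 0.00228). The added calls were Rasgrp1 at -0.58 ± 0.16 (adjusted p = 0.0338), Rasal1 at -0.43 ± 0.12 (adjusted p = 0.0385) and Rasgrf2 at -0.23 ± 0.07 (adjusted p = 0.0492). Each of these 3 was lost in 9 or more of 19 alternative fits, with an adjusted p of at most 0.126. Rasd1, Rasgrf1 and Rap1b were not called.

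Loss of cGAS changed none of the 10 genes by the same test. In the double mutants against HD, where 0.00469% of all genes were called, 1 of the 10 had an unadjusted p under 0.05, as did 1232 genes in all, and DESeq2 called none. In cGAS-KO against WT, where 0% of all genes were called, none of the 10 and 913 genes in all had an unadjusted p under 0.05, and DESeq2 again called none of the 10. Rasd1, Rap1gap and Rap1a did not overlap between the double mutants and HD, each lower in the double mutants, where 17.1% of all genes did not overlap. For Rap1gap the change was -0.15 ± 0.10 in the double mutants against HD and -0.16 ± 0.10 in cGAS-KO against WT. The interaction of the 2 genotypes was called for none of the 10 genes and for 0.00469% of all genes, with 1 of the 10 and 606 genes in all at an unadjusted p under 0.05, and DESeq2 called none of the 10. The double mutants enter the comparison with HD and that with cGAS-KO, so these are not independent.

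Around the 10 genes, 105 further genes of the Ras and Rap pathways were listed by function, of which 104 were tested. In the double mutants against cGAS-KO, 6 fell and none rose, or 5.77%, beside 3.96% of all genes called. In HD against WT, 7 fell and 1 rose, or 7.69%, beside 4.1% of all genes. The medians over the 104 genes were -0.09 and -0.07 on the log2 scale. Without WT library 1 and cGAS-KO library 3, 12 fell and 5 rose in the double mutants and 35 fell and 6 rose in HD, while the calls over all genes went up as well, to 1805 in place of 843 in the double mutants and to 3589 in place of 873 in HD.

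With all 12 libraries, most of the pathway calls were other Ras family GTPases. Of 29 tested, 4 fell in the double mutants against cGAS-KO, and 4 fell and 1 rose in HD against WT. Rasl11b, a small Ras-like protein, averaged 11.9 ± 2.63 CPM in the double mutants against 22.9 ± 5.34 CPM in cGAS-KO, a change of -0.94 ± 0.23 (adjusted p = 0.0382). It averaged 10.6 ± 1.20 CPM in HD against 28.4 ± 7.78 CPM in WT, a change of -1.42 ± 0.23 (adjusted p = 0.00581). Rem2, an RGK GTPase that inhibits voltage-gated calcium channels, changed by -0.92 ± 0.20 in the double mutants (adjusted p = 0.0254) and by -1.04 ± 0.20 in HD (adjusted p = 0.0143). Rasl10b changed by -0.56 ± 0.14 (adjusted p = 0.0364) and by -0.68 ± 0.14 (adjusted p = 0.0153). Hras itself, a classical Ras, averaged 66.7 ± 4.67 CPM in the double mutants against 87.1 ± 3.76 CPM in cGAS-KO, and 67.0 ± 4.52 CPM in HD against 85.1 ± 6.53 CPM in WT. It fell by 0.38 ± 0.08 (adjusted p = 0.0197) and by 0.35 ± 0.08 (adjusted p = 0.0328) on the log2 scale. The one gene that rose in HD was the little expressed Rasl12, at 3.90 ± 0.313 CPM in HD against 1.65 ± 0.470 CPM in WT, by 1.24 ± 0.21 (adjusted p = 0.00660).

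None of the 19 other exchange factors was called by edgeR in either pair. Over all genes tested, 17.4% had an unadjusted p under 0.05 in the double mutants against cGAS-KO and 18.8% in HD against WT. Of these 19 exchange factors, 4 and 6 did. The smallest p belonged to Sos1, the GEF that couples growth factor receptors to Ras, in the double mutants at 0.24 ± 0.09 (adjusted p = 0.161), and to Rgl1, a GEF for Ral, in HD at -0.39 ± 0.12 (adjusted p = 0.0851). Of the 19 other activating proteins, none was called in the double mutants, where 5 had an unadjusted p under 0.05 and Nf1, the RasGAP neurofibromin, had the smallest p at 0.25 ± 0.07 (adjusted p = 0.0637). In HD, 1 of the 19 was called, Sipa1l3, from a family of GAPs for Rap, at -0.34 ± 0.08 (adjusted p = 0.0383). Of 28 effectors and feedback genes, Spry2, a Sprouty inhibitor of receptor-to-Ras signalling, fell by 0.64 ± 0.16 in the double mutants (adjusted p = 0.0427), and none was called in HD, where 7 had an unadjusted p under 0.05. Averaged over cGAS genotypes, 20 of the 104 fell and 7 rose, where 7.63% of all genes fell and 5.59% rose. These included Sipa1l1, of the same family as Sipa1l3, at -0.71 ± 0.14 (adjusted p = 0.00673), and Nf1 at 0.23 ± 0.05 (adjusted p = 0.00812).

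Among 9 partners of Rhes and Dexras1, Htt fell, with log2 changes of -0.33 ± 0.08 in the double mutants (adjusted p = 0.0300) and -0.32 ± 0.08 in HD (adjusted p = 0.0389). Htt is itself the gene that the knock-in allele alters, and a count over the whole gene does not separate its alleles. It is among the pathway calls of both pairs. Nos1, the neuronal nitric oxide synthase that acts on Dexras1, averaged 62.6 ± 8.07 CPM in HD against 92.0 ± 3.66 CPM in WT and fell by 0.56 ± 0.09 (adjusted p = 0.00550). In the double mutants it averaged 82.1 ± 4.90 CPM against 98.4 ± 6.97 CPM in cGAS-KO, a change of -0.26 ± 0.09 that was not called (adjusted p = 0.142). The Nos1 levels of the double mutants and HD did not overlap, where 17.1% of all genes did not overlap. The change of 0.39 ± 0.09 between them was not called either (edgeR unadjusted p = 0.00093, the smallest of the 104 genes there, adjusted p = 0.757). For loss of cGAS none of the 104 genes was called by edgeR, DESeq2 or limma-voom, with 4 at an unadjusted p under 0.05 in the double mutants against HD and 3 in cGAS-KO against WT. Over all genes tested, 5.78% and 4.28% were under 0.05 in these comparisons.

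**Figure D4:**
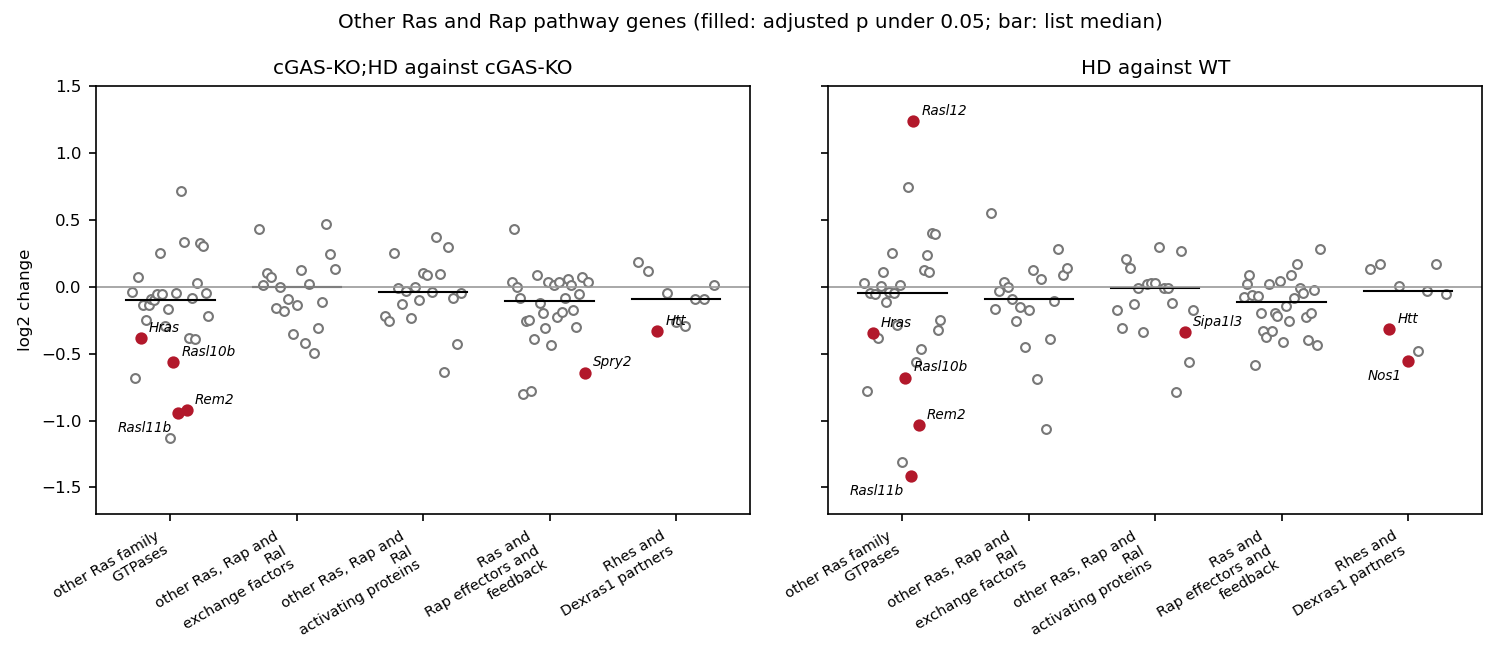
Log2 changes of the 104 further pathway genes are plotted by list for cGAS-KO;HD against cGAS-KO at left and HD against WT at right, with 1 point per gene, filled where called, and a bar at the list's median. The called genes are named, and only Rasl12 lies above 0.

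Start regions were read from RefSeq (GRCm38.p6), as the 250 bases before each annotated start, for 7 of the 10 genes and 14 start sites. Rasd2 is shown because it is the gene with the largest fall. Start site 1 of Rap1gap and the Rasgrf2 window are shown because they share a stretch that is rare among promoters. Capitals mark CACGTGACG, an E-box (CACGTG) whose last 2 bases begin a CRE core (TGACG).
Rasd2, chr8:75213694-75213943, plus strand: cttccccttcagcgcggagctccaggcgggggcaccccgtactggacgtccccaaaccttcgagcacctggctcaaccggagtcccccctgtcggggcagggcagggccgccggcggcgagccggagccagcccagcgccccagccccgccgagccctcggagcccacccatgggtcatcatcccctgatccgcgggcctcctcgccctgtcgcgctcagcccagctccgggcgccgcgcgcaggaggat
Rap1gap, start site 1 of 7, chr4:137664476-137664725, plus strand: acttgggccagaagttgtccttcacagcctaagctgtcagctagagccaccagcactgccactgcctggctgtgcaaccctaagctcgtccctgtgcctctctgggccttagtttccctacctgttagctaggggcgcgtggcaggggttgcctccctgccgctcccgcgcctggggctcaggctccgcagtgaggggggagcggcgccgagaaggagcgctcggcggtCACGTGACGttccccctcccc
Rasgrf2, chr13:92131829-92132078, minus strand: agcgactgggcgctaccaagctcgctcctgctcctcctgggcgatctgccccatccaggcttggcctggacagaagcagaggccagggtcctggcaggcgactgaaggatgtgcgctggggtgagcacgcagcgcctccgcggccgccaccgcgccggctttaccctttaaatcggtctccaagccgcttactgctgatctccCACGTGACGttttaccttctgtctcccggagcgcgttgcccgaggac
CACGTGACG begins at base -21 from the start in Rap1gap and at base -47 in Rasgrf2, and either strand of 0.350% of 32851 promoter windows of this length holds it. Of the Rap1gap start sites, 1 and 3 hold the joined stretch, in windows that overlap, and sites 2, 4, 5, 6 and 7 do not. Because the windows shown were picked for the stretch, its low share is a description and no test. The E-box alone is in 6.02% of windows and the CRE core in 17.8%. The Rasd2 window, with 75.2% G or C against a median of 52.4%, holds none of the motifs searched, which besides these were the full CRE TGACGTCA (1.55% of windows), the GC box GGGCGG (32.7%), the EGR site GCGNGGGCG (4.70%), the TATA box TATAAA (12.4%) and the glucocorticoid response element consensus (0.00900%). The first Rasgrp2 window holds GGGCGG 5 times and the second 2 times, and the Rap1b window holds it 4 times along with TGACGTCA at base -42. A match is a description of the letters and no evidence of binding.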

How the data were processed

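Directional poly(A)+ libraries were prepared from striatal RNA, per the labels' protocols. The authors deposited raw counts for every Ensembl gene of a library. The sources used here do not give their aligner, build or counting rule. Symbols, lengths and positions came from GENCODE M21 (GRCm38), which named 55141 of 55487 genes (99.4%), and promoter windows from RefSeq. The 12 mice are biological replicates, as the labels state. Genes kept by filterByExpr (minimum count 10, minimum total 15) were scaled by TMM and fitted by edgeR 4.0.16 in R 4.3.3 (robust quasi-likelihood, 1 mean per group, 8 residual degrees of freedom). Calls were made at a Benjamini-Hochberg adjusted p under 0.05, and intervals are 95% intervals of the fit. Alternatives included DESeq2 1.42.0 and limma 3.58.1. The code was first tested on simulated counts. The 10 genes and all lists were chosen with earlier results of these data known. The text names the 10 genes, Htt and Cgas, per pathway list up to 4 called genes by p or else the gene with the smallest p, and the 5 genes closest to Rasd2. Some genes this rule names are not reported here. Libraries of a group differed by more than sampling noise in every pair.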

Additional observations from a re-analysis of the deposited data

How the results depend on the processing

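Rasd2 and Rasgrp2 were called in both knock-in pairs under all 14 alternatives of each pair, with changes of -1.33 to -1.20 and -1.29 to -1.14 in the double mutants against cGAS-KO, and of -1.43 to -1.10 and -1.18 to -0.99 in HD against WT. Over all alternatives and the 10 genes, direction and call were the same in 1022 fits, the call was lost in 39 and gained in 8, and the direction turned in 61, all of the turned ones in changes that were not called. The replicate numbers are not stated to pair mice, and the main fit did not pair them. Of 18 same-number pairs of libraries, 3 deviated together at a correlation above 0.1 (median -0.03). Of 36 different-number pairs, 11 did (median 0.006). With 3 libraries per group, such correlations cannot exclude a shared litter or batch. With the replicate number as a block, 2 pathway genes in place of 6 fell in the double mutants and 4 in place of 7 fell in HD. In the averaged comparison 3 in place of 7 rose. Over all genes, that block called 1.83% lower in place of 2.52% in the double mutants and 1.64% lower in place of 2.67% in HD. It called 4.43% higher in place of 5.59% in the averaged comparison. The change of Rasd1 in cGAS-KO against WT was -0.0074 with that block. With DESeq2, 10 pathway genes fell and 2 rose in the double mutants, 15 fell in HD and 32 fell in the averaged comparison. Over all genes DESeq2 called 4.77% lower and 3.03% higher in the double mutants, 5.36% lower in HD and 10.5% lower in the averaged comparison. With the compared groups alone, 3 fell in the double mutants, where 1.72% of all genes were called lower. With no low-count filter 4 rose in the averaged comparison, where 2.6% of all genes were called higher.

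In cGAS-KO against WT, Rasd1 was at -0.0025 with the stricter filter and -0.062 with limma-voom. Rasgrp2 was at -0.0011 without a filter, -0.0048 with the stricter one and -0.0015 with the compared groups alone.

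Leaving out WT library 1 and cGAS-KO library 3 together was chosen after seeing the data. Then 5 of the 10 genes fell in HD. Of the pathway genes, 12 fell and 5 rose in the double mutants, and 35 fell and 6 rose in HD. In the averaged comparison 33 fell and 11 rose, while 1 fell in cGAS-KO against WT and 1 had a positive interaction. Over all genes, 8.31% were called in the double mutants, 16.5% in HD and 21.2% in the averaged comparison. The shares were 0.175% in cGAS-KO against WT and 0.483% in the interaction. Directions that turned were those of Rasd1 in HD (0.094), of Rap1b in the double mutants against cGAS-KO (0.023), and in cGAS-KO against WT those of Rasd2 (-0.048), Rasgrp1 (-0.16), Rasgrp2 (-9.1e-05) and Rasgrf1 (-0.043). In the interaction they were Rasd2 (0.10), Rasgrp1 (0.31), Rasgrf2 (0.034) and Rap1gap (-0.068), and in the averaged cGAS comparison Rasgrp1 (-0.0031), Rasal1 (-0.10) and Rap1b (-0.015). The cause was not tested.

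With 1 library left out at a time, the 10 genes held 0 to 1 higher calls in HD and 3 to 6 lower calls in the averaged comparison. Pathway genes numbered 0 to 3 lower and 0 to 2 higher in the double mutants, 2 to 22 lower and 1 to 3 higher in HD, and 13 to 33 lower and 2 to 8 higher in the averaged comparison. The calls over all genes in the same fits numbered 321 to 1089, 247 to 1532 and 1784 to 3596. The single changes that turned ranged as follows in these fits. In HD against WT, Rasd1 was at -0.21 to 0.090 and Rasgrf1 at -0.10 to 0.0094. In the double mutants against cGAS-KO, Rasgrf1 was at -0.023 to 0.22 and Rap1b at -0.13 to 0.022. In the double mutants against HD, Rasd2 was at -0.11 to 0.22 and Rap1b at -0.10 to 0.017. In cGAS-KO against WT, Rasd2 was at -0.054 to 0.20, Rasd1 at -0.30 to 0.30, Rasgrp2 at -0.070 to 0.087, Rasgrf1 at -0.053 to 0.15 and Rasal1 at -0.39 to 0.045. In the interaction, Rasd2 was at -0.17 to 0.16, Rasgrp1 at -0.37 to 0.12, Rasgrf2 at -0.15 to 0.020 and Rap1gap at -0.10 to 0.10. Averaged over cGAS genotypes the knock-in change of Rasgrf1 was -0.031 to 0.089 and that of Rap1b -0.017 to 0.062. Averaged over knock-in genotypes the cGAS change of Rasd2 was -0.022 to 0.14, that of Rasal1 -0.070 to 0.14 and that of Rap1b -0.00021 to 0.080.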

Other observations

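Immediate early genes, which neurons transcribe soon after calcium and ERK signalling, summed to 215 to 351 CPM over 9 listed genes in the double mutants, against 449 to 816 CPM in cGAS-KO. In HD they summed to 162 to 336 CPM, against 199.8 to 694 CPM in WT. The median log2 change of the 9 genes was -0.86 in the double mutants against cGAS-KO and -0.88 in HD against WT. The HD and WT sums overlapped, and edgeR and limma-voom called none of the 9 genes in either pair, where 3 and 4 had an unadjusted p under 0.05 and DESeq2 called 1 in the double mutants and none in HD. Over all genes tested, 17.4% and 18.8% had an unadjusted p under 0.05 by edgeR in these pairs. Of the 8 glucocorticoid-induced genes, 1 fell in the double mutants against cGAS-KO and 3 fell in HD against WT, beside 2.52% and 2.67% of all genes called lower. The median log2 change of the 8 genes was 0.02 in the double mutants against cGAS-KO and -0.54 in HD against WT.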
